A study of Homo sapiens with 12 samples.

Results

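The comparison described here is that of tretinoin alone with its vehicle in A375 cells, an established human melanoma line that carries a mutant BRAF kinase. Its members are 6 of the 12 RNA-seq libraries of the series: the 3 titled as tretinoin replicates and the 3 titled as DMSO replicates, with every expressed gene as the readout. The cells were exposed for 8 h. The labels list a dose of 5 µM for each group, the dimethyl sulfoxide (DMSO) vehicle included. The other 6 libraries, 3 of vemurafenib and 3 of vemurafenib + tretinoin (the combination), entered the model for its estimate of the spread and gave a second comparison of tretinoin with its absence, in cells that also carried the BRAF inhibitor. All 12 libraries come from this line. The sources used here call the samples triplicates without saying whether the cultures were separate, so that the P-values measure only the spread between these libraries.

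Tretinoin, all-trans retinoic acid, is the active form of vitamin A. It enters cells by diffusion or after release from a carrier, is held in the cytoplasm by binding proteins, and binds the retinoic acid receptors (RARs). These pair with retinoid X receptors (RXRs) on DNA, where they recruit corepressors without ligand and coactivators with it. The best known early targets clear or store the retinoid itself, encode the receptor RARβ, or belong to the HOX clusters that pattern the embryo.

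Between 13510235 and 20417536 fragments were counted in the 6 libraries, with the lowest total in tretinoin replicate 1. Of the melanoma markers, PRAME held 1996 to 2309 normalized counts (counts scaled by TMM, the trimmed mean of M-values, to the mean effective library size) and CSPG4 held 5852 to 7482. MITF, the melanocyte master regulator, held 243 to 356. TYR and SOX10, which define pigmented melanocytes and the neural crest lineage, were listed at 0 in all 6 libraries. Exons of another gene shared 2.4% of the SOX10 exon bases, so that little of it falls under the counting rule that leaves out ambiguous fragments. Markers of other cells were mixed. The keratinocyte and epithelial list summed to 10350 to 17310 normalized counts, of which the simple-epithelium keratin KRT18 held 8440 to 14460, whereas EPCAM and CDH1 held at most 10.6 and KRT1 had no count. The blood list summed to 3621 to 3917, with RUNX1 at 1338 to 1759, whereas GP9 and PF4 had no count in the 6 libraries. A set of low blood-type transcripts that differed between libraries is given with the histone genes further on.

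Tretinoin replicate 1 stood apart from its group. Among 11001 genes with a mean normalized count of at least 100, 94 lay more than 1 log2 unit from the mean of the other 2 tretinoin libraries, 73 of them lower and 21 higher. The other 11 libraries had between 0 and 12 such genes. The common dispersion of the tretinoin group was 0.0148 with replicate 1 and 0.00144 without it, against 0.00516 in DMSO. Counts of called genes are therefore also given without this library where they moved.

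Tretinoin changed 951 of 16740 tested genes at an adjusted P below 0.05 (edgeR quasi-likelihood test, Benjamini-Hochberg adjustment, used for every adjusted P here unless another tool is named), or 5.68%. Of these, 583 were higher (3.48% of the genes tested) and 368 were lower (2.2%). The changes were mostly small. The median log2 fold change of the higher genes was 0.63, and 163 of them reached 1 on the log2 scale. The median of the lower genes was -0.39, and 15 of them fell by 1 or more. The median over all tested genes was 0.011 under TMM, which centres it, and 0.083 under library totals.

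**Figure D1:**
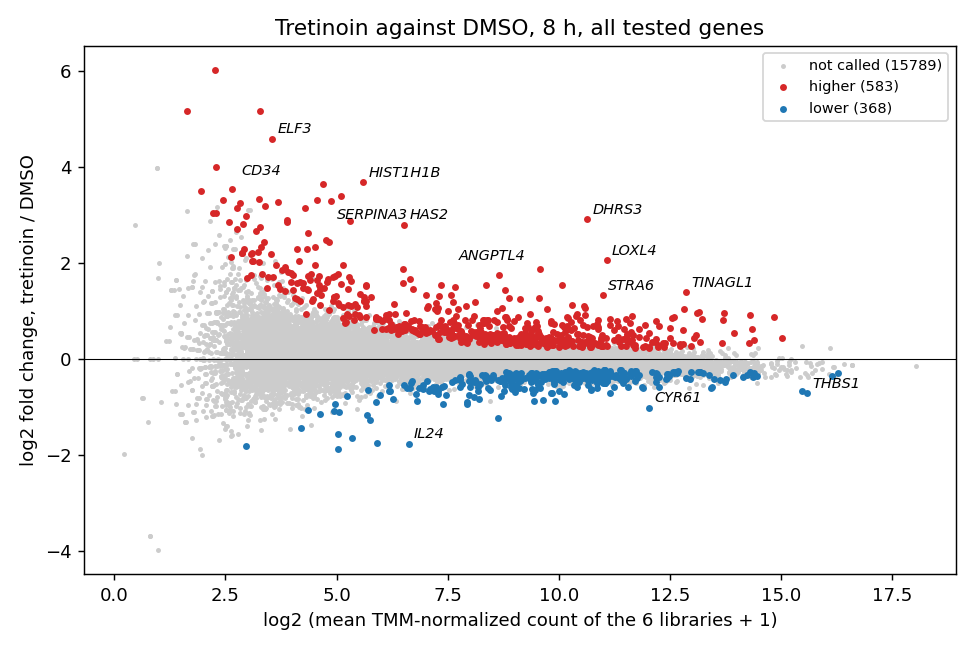
Log2 fold change of tretinoin over DMSO (vertical) against the log2 mean normalized count of the 6 libraries (horizontal) for all 16740 tested genes; red points are the 583 higher genes and blue points the 368 lower genes at an adjusted P below 0.05. The named rises with high counts, DHRS3, LOXL4, STRA6 and TINAGL1, sit apart from the cloud, whereas the largest fold changes at the left rest on few counts.

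Without replicate 1 the counts were 523 higher (3.06%) and 353 lower (2.06%), 5.12% of the genes tested in all, and 449 of the 583 and 252 of the 368 were called again. With replicate 1 as the only tretinoin library, its spread taken from the other groups, 1570 genes were higher (8.72%) and 2151 lower (11.9%). With the 6 libraries fitted alone, 234 genes were higher and 71 lower. Leaving out DMSO replicate 2 gave 273 and 106. Scaling by library totals gave 758 higher and 174 lower in place of 583 and 368. The number of genes called, and for totals its split, thus depended on these choices. None of the 951 genes changed sign when any single tretinoin or DMSO library was left out. Their choice in these same libraries largely fixed that outcome, because the groups did not overlap for 567 of the higher and 363 of the lower genes. Over all tested genes, 11.3% were higher and 12.9% lower in tretinoin without overlap of the groups.

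Of 15 tested genes of retinoid uptake, binding, synthesis and clearance, 4 rose, 1 fell and 10 were not called. The counts of this and every later list stand beside 3.48% higher and 2.2% lower over all tested genes. DHRS3, which reduces retinaldehyde back to retinol, held 441, 349 and 336 normalized counts in DMSO and 2581, 2869 and 3000 in tretinoin. The groups lay far apart, and replicate 1 was the lowest of its group by a small margin. This was a 7.52-fold rise (log2 fold change 2.91, SE 0.09, adjusted P = 1.9e-12), with the smallest adjusted P of the named genes. DHRS3 lies on the minus strand at chr1:12567910-12617731 (GRCh38, GENCODE 29). STRA6, the membrane receptor that takes retinol from its plasma carrier (chr15:74179466-74212267), held 1226, 1106 and 1124 counts in DMSO and 3160, 2752 and 2824 in tretinoin. It rose 2.53-fold (log2 fold change 1.34, SE 0.09, adjusted P = 5.8e-08).

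CRABP2, which carries retinoic acid to the nuclear receptors, rose from a low level. It held 34.9, 34.2 and 26.7 counts in DMSO and 55.6, 56.7 and 62.4 in tretinoin (log2 fold change 0.88, SE 0.21, adjusted P = 0.021). CYP26B1, a cytochrome that oxidizes retinoic acid, held 153, 123 and 128 counts in DMSO and 244, 171 and 194 in tretinoin. Its groups did not overlap, but replicate 1 was the highest library, and the change (log2 fold change 0.58, adjusted P = 0.031) had an adjusted P of 0.085 without it. ALDH1A3, which makes retinoic acid from retinaldehyde, fell by 0.31 on the log2 scale (adjusted P = 0.0092), from 5705, 6228 and 6387 counts to 4947, 4891 and 4964. The list held 35 genes, of which these 15 passed the filter on low counts. LRAT, which esterifies retinol for storage, did not pass with all libraries (log2 fold change 0.42, adjusted P = 0.067) and did without replicate 1 (0.55, adjusted P = 0.0064).

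CYP26A1, the family member best known for fast induction by retinoic acid, stayed near the detection limit. It held 3.5, 7.3 and 4.8 counts in DMSO and 7.9, 5.3 and 8.9 in tretinoin (adjusted P = 0.63). RARB held 24.5, 23.2 and 25.8 counts in DMSO and 62.3, 36.8 and 34.6 in tretinoin. The groups did not overlap, but the difference did not pass the edgeR test (log2 fold change 0.82, SE 0.28, adjusted P = 0.10). With DESeq2 on all libraries it did pass (adjusted P = 0.037), so that the call for RARB depended on the tool. Its size in edgeR was 0.54 without replicate 1 (adjusted P = 0.33). These 2 genes are the textbook carriers of a promoter element of 2 half-sites in direct repeat with a 5-base spacer (DR5). Their RefSeq promoters (GRCh38.p14, plus strand) are printed for that reason, with the half-sites in capitals. The RARB stretch is chr3:25428185-25428251 and ends its repeat 36 bases before the start site. The CYP26A1 stretch is chr10:93073778-93073844, with the repeat on the opposite strand, 73 bases before the start.
RARB: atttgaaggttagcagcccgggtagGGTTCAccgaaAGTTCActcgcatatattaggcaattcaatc
CYP26A1: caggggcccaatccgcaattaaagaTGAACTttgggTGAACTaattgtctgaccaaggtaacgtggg
The half-site was searched on both strands with the letters AGGTCA, with AGTTCA in its place, with the letters GGGTCA, and with GGTTCA. Of 35116 promoter windows of 300 bases, 31 (0.0883%) held such a repeat with a 5-base spacer, RARB and CYP26A1 among them. A window was found for 398 of the 580 symbols of higher genes, too few for a count over that set, which is void.

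**Figure D2:**
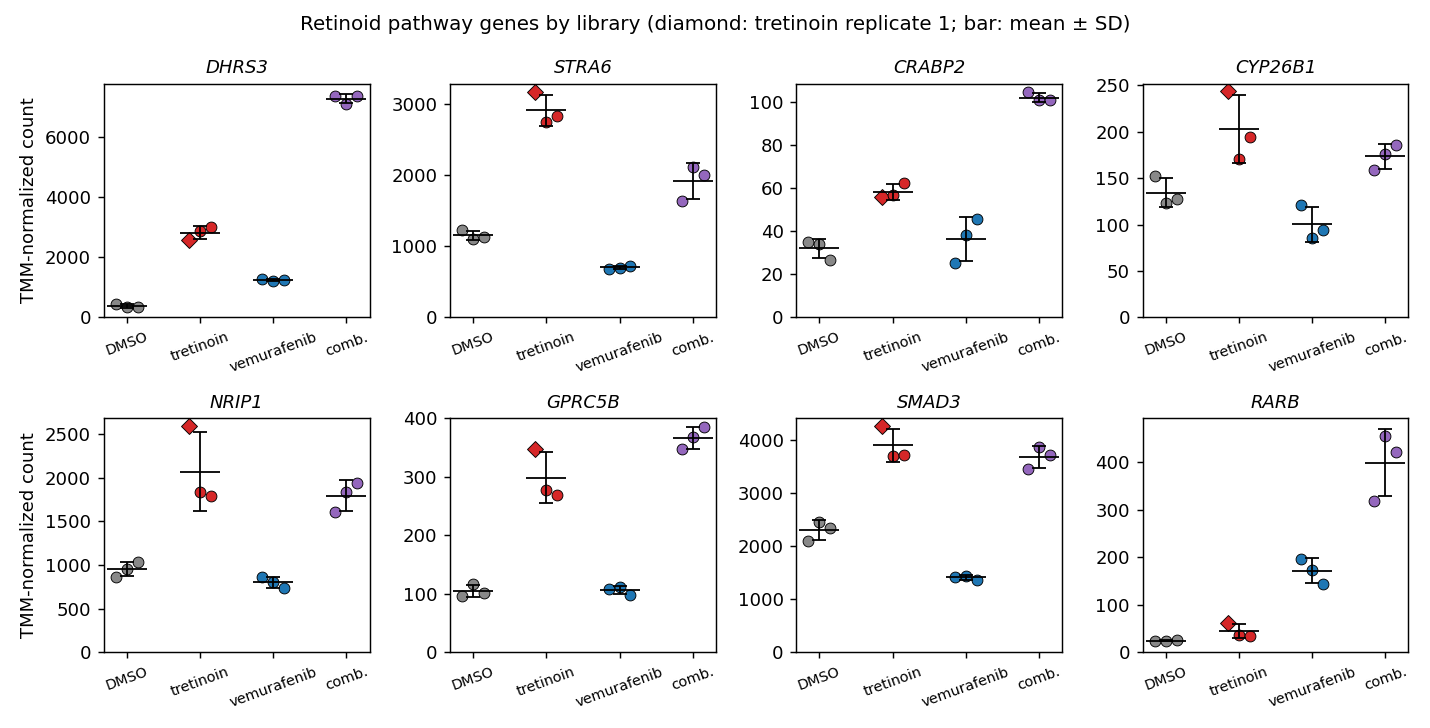
Normalized counts of 8 retinoid pathway genes by library in the 4 treatment groups, each point a library, the diamond tretinoin replicate 1, and the bars the mean ± SD of 3 libraries, with each axis starting at 0. All 8 genes were higher in all 3 tretinoin libraries than in any DMSO library, as were 11.3% of all tested genes. RARB lay below 63 counts in the DMSO and tretinoin groups but reached over 300 in the combination.

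All 22 listed receptors and coregulators were tested, 2 rose and none fell, and without replicate 1, 1 fell. Over all tested genes, 3.48% were higher and 2.2% lower. RARA held 776 to 874 counts in DMSO and 791 to 885 in tretinoin, and RARG held 1083 to 1138 and 1135 to 1266. RXRA held 1130 to 1404 counts in DMSO and 1037 to 1255 in tretinoin. The groups overlapped for all 3 genes, with adjusted P-values of 0.94, 0.47 and 0.37. NRIP1, a corepressor recruited by receptors that have bound their ligand, held 868, 955 and 1035 counts in DMSO and 2591, 1836 and 1787 in tretinoin. It rose 2.17-fold (log2 fold change 1.12, SE 0.12, adjusted P = 1.7e-05), with replicate 1 well above the other libraries, and by 0.92 without it.

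Of 61 textbook retinoid targets, 50 were tested, 15 rose and 1 fell, with a median log2 fold change of 0.20 against 0.011 over all genes. Without replicate 1, 13 rose and 2 fell. GPRC5B, an orphan receptor of the retinoic acid-induced family, had the smallest adjusted P of the list: it held 95.5, 116 and 101 counts in DMSO and 348, 277 and 269 in tretinoin, a 2.85-fold rise (log2 fold change 1.51, SE 0.12, adjusted P = 9.4e-07). Its relative GPRC5A rose by 0.51 (adjusted P = 0.0051). ELF3, an epithelial ETS factor, was almost absent in DMSO. Only 2 counts were found over the 3 DMSO libraries and 56 over the 3 tretinoin libraries, at 21.2, 21.0 and 19.8 normalized counts each. The ratio of summed counts per total was 29.5, with a 95% exact interval of 7.78 to 249 that covers counting error only.

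SMAD3, a transducer of TGF-β signals, rose from 2104, 2464 and 2352 counts to 4272, 3715 and 3731 (log2 fold change 0.76, SE 0.08, adjusted P = 8.8e-06). LTBP3, which anchors latent TGF-β in the matrix, rose by 0.68, and the transcriptional repressor BHLHE40 by 0.89. The other risers included PLAT (tissue plasminogen activator, 0.44), TGM2 (tissue transglutaminase, 0.48), IGFBP5 (an IGF-binding protein, 0.72), SKIL (a repressor of SMAD signals, 0.43), MEIS2 (a HOX cofactor, 0.30), TNFAIP2 (0.31), RAI14 (0.25) and RAI1 (0.26). RAI14 and RAI1 did not pass without replicate 1 (adjusted P = 0.057 and 0.080). CCND1, cyclin D1, fell by 0.44 (adjusted P = 0.010), from 12260, 16000 and 15330 counts to 11630, 10430 and 10170.

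Among the HOX genes, 33 of 39 were tested, 3 rose and 1 fell. Over all tested genes, 3.48% were higher and 2.2% lower, so that the single fall lies near that share. HOXA5 held 205, 167 and 194 counts in DMSO and 313, 367 and 381 in tretinoin (log2 fold change 0.91, SE 0.10, adjusted P = 3.4e-05). HOXC13 rose by 0.40 and HOXB3 by 0.54, but the latter had an adjusted P of 0.12 without replicate 1. HOXB2 fell by 0.34 (adjusted P = 0.027) but was not called in 8 of the alternative fits.

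Among the 15 largest rises, several genes lay outside these lists. LOXL4, a lysyl oxidase that crosslinks collagen, held 899, 769 and 832 counts in DMSO and 3757, 3411 and 3280 in tretinoin, a 4.18-fold rise (log2 fold change 2.06, SE 0.08, adjusted P = 2.0e-11). ANGPTL4, an inhibitor of lipoprotein lipase, rose from 291, 341 and 348 counts to 1041, 1287 and 1257 (1.87, SE 0.15, adjusted P = 6.1e-07). TF, the iron carrier transferrin, rose from 37.3, 31.7 and 43.9 counts to 131, 126 and 161 (1.88, SE 0.16, adjusted P = 9.5e-07). The rule for the 15 largest rises took only genes in which every tretinoin library exceeded every DMSO library. In these 3 genes replicate 1 lay close to its group mates.

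SERPINA3, a serine protease inhibitor of the acute phase, rose from 8.2, 4.9 and 2.9 counts to 55.6, 54.6 and 44.5 (log2 fold change 3.29). HAS2, which makes hyaluronan, rose from between 13.4 and 34.9 counts to 188, 168 and 123 (2.80). FAM78B rose by 1.76, FGF12, a growth factor homologue that stays in the cell, by 1.59, and TXK, a TEC family kinase, by 1.67. TINAGL1, a basement membrane protein, was named after its values were seen because of its high level: it held 4085, 3880 and 4400 counts in DMSO and 10210, 10890 and 11370 in tretinoin (log2 fold change 1.39, adjusted P = 7.2e-10). Of the other 6 among the 15 largest rises, HIST1H1B, STAB1, FAM30A and HIST1H1E had replicate 1 at most at 1/2 of both group mates, as described with the histone genes. CCND2 (log2 fold change 1.96) and SPN (1.72) were also lowest in replicate 1 of their group but by less.

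The falls were smaller. KRT16, a keratin of stressed epithelium, fell from 36.1, 69.6 and 44.8 counts to 10.6, 17.9 and 11.9 (log2 fold change -1.86, SE 0.33, adjusted P = 0.0021). KRT6A, its usual partner, fell by 1.75 and FGFBP1, which releases bound FGF, by 1.63. IL24, a cytokine of the IL-10 family, fell from 95.5, 210 and 145 counts to 47.7, 36.8 and 48.5 (-1.76, adjusted P = 2.7e-04). ANKRD1 and CYR61, both well known targets of YAP and TEAD factors, fell by 1.23 and 1.01. CYR61 held 4559, 6803 and 5476 counts in DMSO and 2778, 2699 and 2899 in tretinoin. SYNC, a cytoskeletal protein, fell by 1.26, and the noncoding RNA LINP1 by 0.93. GET4 (-1.17) and PALM3 (-0.94) were lowest in replicate 1, by 1.31 and 1.25 log2 units against its group mates, and exons of other genes shared 80.8% of the GET4 exon bases.

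Signal outputs moved in both directions. The counts in this and the following lists stand beside 3.48% higher and 2.2% lower over all tested genes, and no list was tested as a set. Of 22 genes of ERK output, 2 rose and 4 fell, with EGR1 (0.68) and PHLDA1 (0.45) higher and CCND1, MAFF (-0.47), IER3 (-0.30) and the phosphatase DUSP4 (-0.28) lower. Without replicate 1, 5 of the 22 fell. Of 28 immediate early and AP-1 genes, 3 rose (FOSB by 0.81, EGR3 by 0.82 and EGR1) and 4 fell (JUND by 0.46, KLF6 by 0.43, JUNB by 0.39 and IER3). Without replicate 1, 7 fell. FOSB held 209, 260 and 221 counts in DMSO and 405, 403 and 403 in tretinoin, with little spread in the treated group. The NF-κB and cytokine list had 27 tested genes, of which 4 rose and 5 fell. The chemokine CCL2 rose from 166, 171 and 166 counts to 404, 368 and 383 (log2 fold change 1.20, adjusted P = 5.2e-06), LIF by 0.71, IL1A by 1.53 and TRAF1 by 0.79. CXCL1, a neutrophil chemokine, fell from 1040, 741 and 897 counts to 439, 511 and 517 (-0.87, adjusted P = 1.3e-04). IL24, RELB (-0.42), NFKBIE (-0.42) and IER3 were the other falls.

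Of 37 interferon-stimulated genes, 3 rose (IFIT1 by 0.78, PARP9 by 0.50 and PARP14 by 0.44) and none fell, and 5 rose without replicate 1. Of 20 antigen presentation genes, 2 rose, HLA-DMA by 0.39 and ERAP1 by 0.38. Neither passed without replicate 1.

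The cell cycle lists showed small falls in mitotic genes. Of 41 mitosis genes, 8 fell and none rose. The kinase AURKA held 3714, 4104 and 3751 counts in DMSO and 2963, 3099 and 3097 in tretinoin (log2 fold change -0.34, adjusted P = 0.0034). CDC25B, a phosphatase that activates cyclin-dependent kinases, fell by 0.39, CDC20 by 0.27 and PLK1 by 0.26. In bulk libraries, fewer dividing cells and less of these RNAs per cell cannot be told apart. Without replicate 1, 6 fell, and with the 6 libraries fitted alone, 1 did. None of 43 G1/S and replication genes was called by edgeR, DESeq2 or limma, and 6 had an unadjusted P below 0.05. Of 18 G1 regulators, 2 rose (CCND2 and CDK6, 0.29) and 4 fell: CDKN1C by 0.65, CCND1, CDKN2C by 0.32 and CDKN1B by 0.30. CDK6, CDKN2C and CDKN1B did not pass without replicate 1. Of 29 p53 targets, GDF15 (0.68) and EDA2R (0.60) rose and none fell, and 3 rose without replicate 1. No apoptosis gene of 29 was called by edgeR or DESeq2, limma with quality weights called 1, and 4 had an unadjusted P below 0.05.

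Of 34 genes of cholesterol and fatty acid metabolism, 6 fell (5 without replicate 1) and 3 rose. The falls included HMGCS1 (-0.38), LSS, MVK, MVD and INSIG1, genes of sterol synthesis and its feedback, the last 4 between -0.31 and -0.43. The risers act on fatty acids or their control: ACSL3, an acyl-CoA synthetase, rose by 0.71 (adjusted P = 3.9e-06), the elongase ELOVL6 by 0.44 and SREBF1 by 0.35. Of 12 genes driven by the liver X receptors, another RXR partner, ABCA1, which exports cholesterol, rose by 0.84, LPCAT3 by 0.53 and SREBF1 also, and MYLIP, a ubiquitin ligase, fell by 0.58. LPCAT3 did not pass without replicate 1 in the fit of all libraries (adjusted P = 0.080), and exons of another gene shared 65.6% of its exon bases.

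Of 21 heat shock genes, 5 fell (4 without replicate 1) and 1, BAG3, rose (0.23), with a list median of -0.24. HSPA1A and HSPA1B, near-identical copies of the inducible HSP70, both fell, with almost equal counts in each library. The 2 falls may therefore not be separate observations. HSPA1A held 14110, 12740 and 12900 counts in DMSO and 6789, 9840 and 9432 in tretinoin, and HSPA1B held 14170, 12840 and 13010 and then 7005, 10060 and 9622, so that replicate 1 was lowest and all DMSO libraries were higher. Their log2 fold changes were -0.61 and -0.58 with all libraries and -0.46 and -0.44 without replicate 1. The cochaperone DNAJB4 fell by 0.65, HSPB1 by 0.41 and HSP90AA1 by 0.34. DESeq2 called 11 falls in this list. Of 33 ATF4 targets, CHAC1 (0.41), VLDLR (0.45) and WARS (0.30) rose and PHGDH (-0.28) and STC2 (-0.48) fell. Without replicate 1, 2 of the list rose and 2 fell. Of 19 genes of the unfolded protein response, HERPUD1 rose (0.29), which did not pass without replicate 1. Of 34 hypoxia and glycolysis genes, 3 rose, ANGPTL4, BHLHE40 and PFKFB4 (0.58), and 5 fell: the vasoactive peptide ADM by 0.85, NDRG1 by 0.57, TPI1 by 0.36, and HK2 and BNIP3 by 0.28 each.

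Of 32 TGF-β and BMP genes, 7 rose and 1, the activin antagonist FST, fell (-0.42). PMEPA1, a feedback inhibitor of the pathway, rose from 2192, 2097 and 1979 counts to 3912, 3758 and 3540 (log2 fold change 0.84, SE 0.07, adjusted P = 9.8e-07). TGFBI, a matrix protein induced by TGF-β, rose by 0.44, and SMAD3, LTBP3, SKIL, TGFBR2 (0.47) and BMP6 (0.53) were the others. As many rose with the 6 libraries fitted alone and without replicate 1, and 2 fell without it. Of 48 matrix and adhesion genes, 11 rose (12 without replicate 1) and 3 fell. ITGB3, the integrin β3 chain, rose from 559, 519 and 583 counts to 1848, 1505 and 1475 (1.54, SE 0.10, adjusted P = 4.8e-08). The integrin ITGA4 rose by 0.90, and TIMP3, an inhibitor of matrix proteases, by 0.64. Exons of an overlapping gene shared 51.6% of the ITGB3 exon bases. THBS1 (-0.71), LAMB3 (-0.31) and CYR61 were the 3 falls.

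Of 31 Notch and Wnt genes, FZD1 (0.43), LFNG (0.46) and MFNG (0.64) rose, and FZD2 (-0.66), FZD8 (-0.48), DKK1 (-0.36) and LGR5 (-1.15) fell, so that Frizzled receptors went both ways. Without replicate 1, 2 of the list rose. Of 23 receptors tied to drug resistance, ROR1 rose by 1.05 and DDR1 fell by 0.37, and 2 fell without replicate 1. A single call in each direction lies near the shares over all tested genes. Of 13 factors of epithelial-mesenchymal transition, 4 rose (PRRX1 by 0.51, SNAI2 by 0.93, SNAI1 by 0.34 and FOXC1 by 0.28). Without replicate 1, PRRX1 alone of these was called higher, and ZEB2 and VIM were called lower. Of 17 melanocyte genes, EDNRB, the endothelin receptor of the lineage, rose by 0.60 and RAB38, which sorts pigment enzymes, fell by 0.47. Of 13 melanoma line markers, MCAM rose by 0.29 (adjusted P = 0.046). None of 6 keratinocyte and epithelial markers was called by edgeR, DESeq2 or limma, and 1 had an unadjusted P below 0.05. Of 9 fibroblast and endothelial markers, CDH5, the cadherin of vessel walls, rose from 75.7, 78.1 and 93.5 counts to 276, 254 and 198 (1.54, adjusted P = 1.5e-05), and by 4.43 in the combination over vemurafenib. Of 3 immune markers tested, PTPRC (CD45) rose by 1.46.

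**Figure D3:**
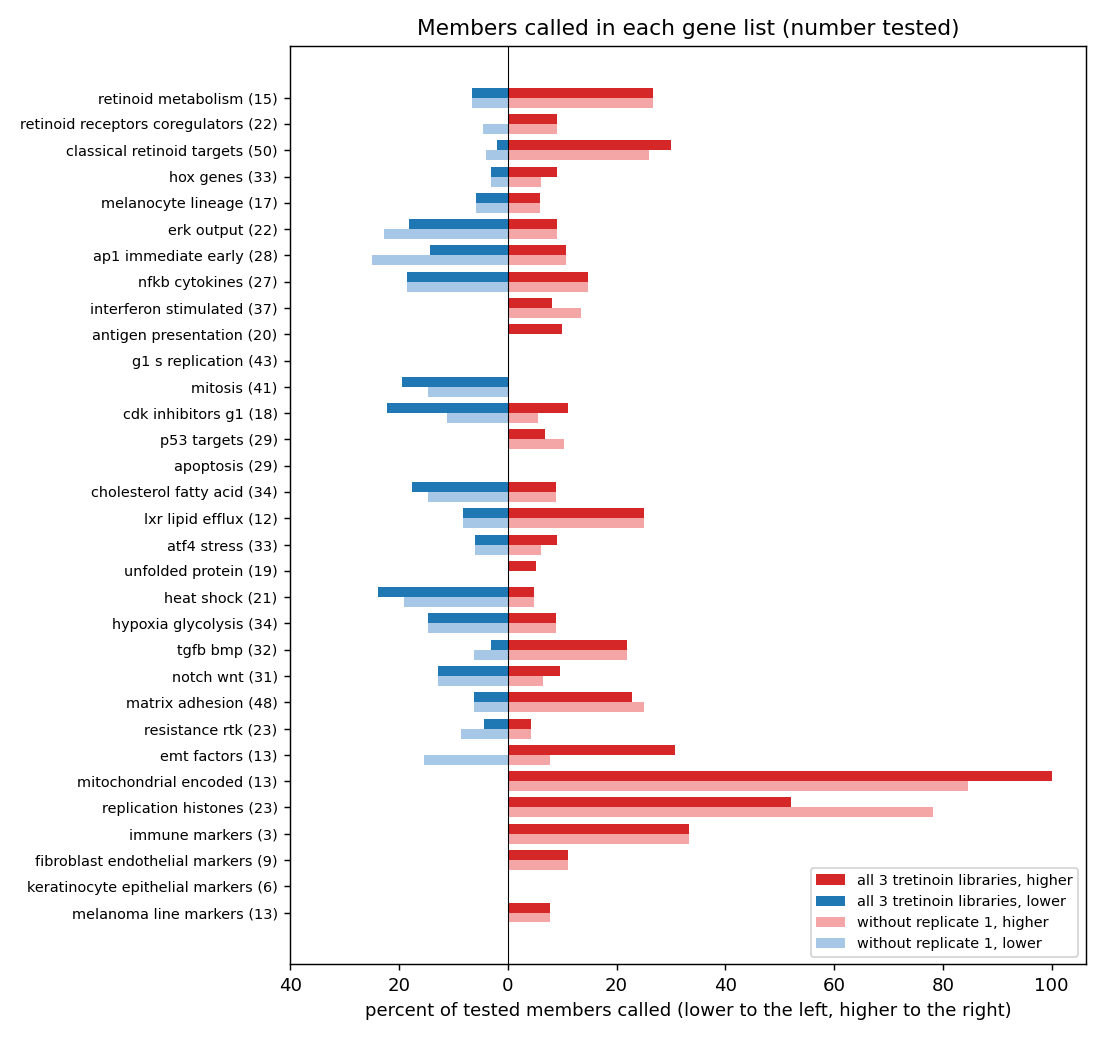
Percent of the tested members of each of the 32 gene lists that were called higher (to the right, red) or lower (to the left, blue) in tretinoin against DMSO, with the number tested in brackets; dark bars use all 3 tretinoin libraries and pale bars leave out replicate 1. Over all genes 3.48% were higher and 2.2% lower, and the mitochondrial and histone lists extend furthest to the right.

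Mitochondrial and histone transcripts gave the highest shares of called genes, and DMSO was the lowest group for both, below the vemurafenib libraries as well. All 13 protein-coding genes of the mitochondrial genome rose, with a median log2 fold change of 0.88, and 11 did without replicate 1. MT-CO1, a subunit of cytochrome oxidase, held 21510, 19690 and 20870 counts in DMSO and 48340, 32400 and 33170 in tretinoin (log2 fold change 0.88, adjusted P = 9.3e-04). The 13 genes held 0.38% to 0.47% of the normalized counts in DMSO, 1.13% in replicate 1, and 0.69% and 0.73% in replicates 2 and 3. In the vemurafenib libraries they held 0.80% to 0.82%, and in the combination 0.87%, 1.46% and 1.34%. Of the 13 genes, 5 also rose in the combination over vemurafenib, and the median log2 fold change there over all 13 was 0.60.

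Of 23 tested replication-dependent histone genes, 12 rose and none fell, and 18 rose without replicate 1. The mRNAs of this class lack a poly(A) tail, and the libraries were made from polyadenylated RNA. HIST1H1B, a linker histone, held 9.3, 2.4 and 8.6 counts in DMSO, 29.1 in replicate 1, and 143 and 93.0 in replicates 2 and 3 (log2 fold change 3.68, adjusted P = 2.7e-04). The summed level of the 26 listed genes was 437 to 478 in DMSO, 513 in replicate 1, 1277 and 1114 in replicates 2 and 3, and 1028 to 1430 in the 6 other libraries.

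A set of transcripts of blood progenitors and their offspring followed the same order of libraries. The genes named here were chosen after their values were seen. CD34, the progenitor surface marker, held 4.7, 0 and 5.7 counts in DMSO, 19.9 in replicate 1, and 63.0 and 55.4 in replicates 2 and 3. STAB1 (a scavenger receptor), ITGA2B (a platelet integrin chain), RHAG (an erythroid membrane protein), GFI1B (an erythroid and megakaryocyte factor), IGHM and CD93 did likewise. Summed over these 7 genes, DMSO held 21.0 to 28.1 counts, replicate 1 held 94.1, replicates 2 and 3 held 297 and 235, and the vemurafenib and combination libraries held 301 to 505. Of 44 blood markers, 25 were tested, 11 rose and 2 fell. The defining markers KIT, GATA1, MPO and HBB held at most 3.97 counts in any of the 6 libraries. The 2 falls, of HHEX (-0.36) and GATA2 (-0.29), were small, and 1 was called without replicate 1.

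More broadly, 46 tested genes had all 8 other libraries at least 2 times above every DMSO library, with replicate 1 at most 1/2 of its group mates. Of the 583 higher genes 33 were of this kind, and of the 50 with the largest fold change 23 were. None of the 33 was called in the combination against vemurafenib. Their choice asked that the libraries of both these groups lie above DMSO, which favours a small change between the 2 groups. Nothing is therefore concluded from this. The labels name no batch, and the part of this library pattern in the rises was not tested. The retinoid genes DHRS3, STRA6 and NRIP1 did not follow it, nor did LOXL4: they lay far above DMSO in replicate 1 as in its group mates, and rose in the combination over vemurafenib.

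**Figure D4:**
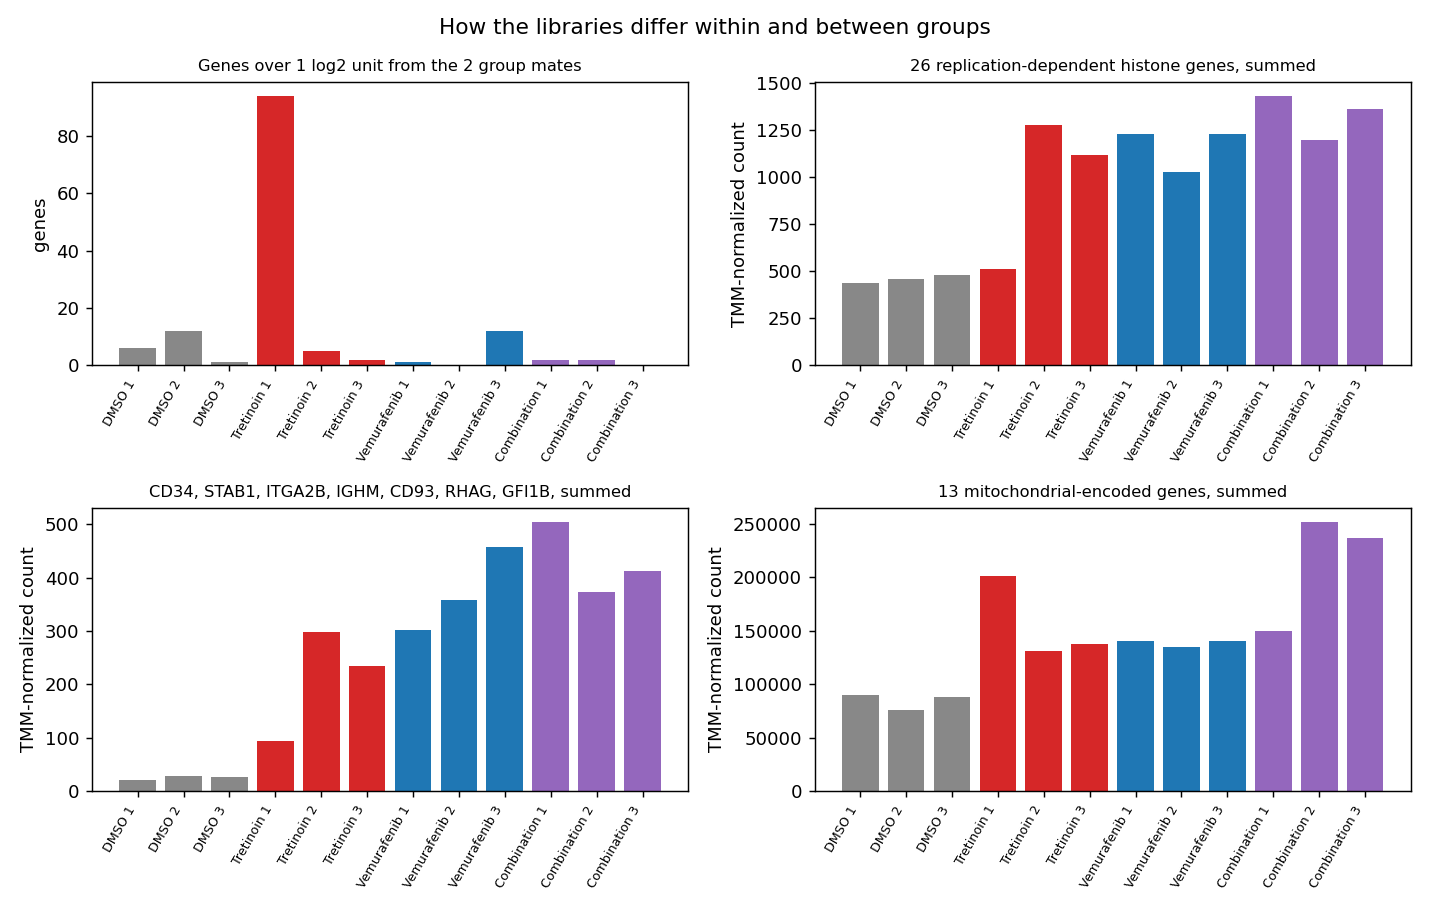
Bars give, for each of the 12 libraries, the number of genes more than 1 log2 unit from both group mates' mean (top left) and the summed normalized counts of 26 histone genes (top right), 7 blood-type transcripts (bottom left) and 13 mitochondrial genes (bottom right). Tretinoin replicate 1 has 94 deviating genes, sits near DMSO for histones (513) and between DMSO and its group mates for the blood-type transcripts (94.1), and exceeds both for mitochondrial genes.

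Replicate 1 also departed by genes that were not called in tretinoin against DMSO. The 8 genes with the largest gap to its group mates, VCX3A, BCYRN1, RF01973, LENG1, UQCRHL, CERS1, AC012065.5 and TCEAL3, were all lower in it, by up to 2.25 log2 units. None of the 8 was called in the comparison with DMSO. They were picked for a gap that widens the spread of their group, so this does not show an absence of change. VCX3A held 127, 92.8 and 108 counts in DMSO, 23.9 in replicate 1, and 115 and 120 in replicates 2 and 3. BCYRN1, a short noncoding RNA, held 399, 591 and 380 counts in DMSO, 79.5 in replicate 1, and 306 and 344 in replicates 2 and 3. Across genes, the median gap of replicate 1 to its group mates was -0.14 in the quartile with the shortest summed exons (up to 3314 bases) and 0.14 in the longest (from 7702 bases). The difference of 0.28 between these quartiles compared with -0.12 to 0.13 in the libraries of the other groups. In tretinoin replicates 2 and 3, whose gaps are taken in part against replicate 1, it was -0.07 and -0.20. By GC content the difference for replicate 1 was -0.12, against -0.07 to 0.11 in the other 11 libraries.

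Gene length moved with the calls as well. Of the quartile of tested genes with the longest exons 239 were called higher and 57 lower, and of the shortest 109 and 99. Without replicate 1 these were 185 and 75 of the longest, and 125 and 92 of the shortest. The part of transcript length in single calls was not tested.

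The combination against vemurafenib compared tretinoin with its absence in libraries that share no sample with the first comparison. There, 380 genes were higher (2.27%) and 369 lower (2.2%), or 4.47% in all. Of the 583 genes higher after tretinoin alone, 181 were also higher there, which is 31.0% of the first list and 47.6% of the second, and 5 were lower. Of the 368 lower genes, 61 were also lower (16.6% and 16.5%) and 5 were higher. The retinoid rises were shared. DHRS3 rose 5.82-fold there, STRA6 2.74-fold, LOXL4 3.05-fold and GPRC5B 3.44-fold, and CRABP2, CYP26B1, NRIP1, SMAD3 and TF rose too. RARB rose in this comparison (log2 fold change 1.22, adjusted P = 5.3e-05), from 171 ± 25.9 to 399 ± 71.1 counts (SD, n = 3). Its level in DMSO was 24.5 ± 1.28 counts, and the change was not shown to differ between the settings (interaction adjusted P = 0.58).

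**Figure D5:**
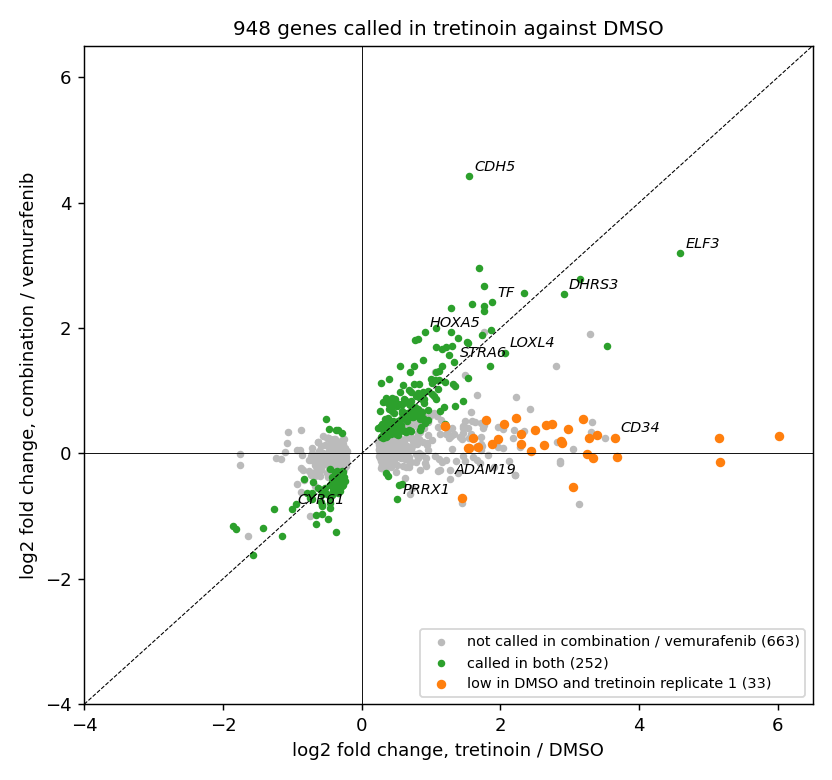
Log2 fold change of the combination over vemurafenib (vertical) against that of tretinoin over DMSO (horizontal), with the line of equality dashed. Of the 951 genes called in tretinoin against DMSO, 948 are drawn, and 3 were left out by their annotation. The 252 green genes were called in both comparisons. The 33 orange genes, low in DMSO and tretinoin replicate 1, lie along 0 on the vertical axis, a position that their choice favours.

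The effect of tretinoin differed with and without vemurafenib for 135 genes (interaction, 0.806%), 81 of which were called after tretinoin alone. Of the 57 higher genes among them, 46 had the smaller or opposite change in the presence of vemurafenib. The interaction subtracts the same change by which these genes were picked. That choice by itself favours a smaller change, so nothing is concluded from the split. ADAM19, a membrane protease, rose from 276, 237 and 307 counts to 756, 629 and 602 after tretinoin alone (log2 fold change 1.27), whereas its change over vemurafenib was -0.41 and was not called. The mesenchymal factor PRRX1 rose by 0.51 alone and fell by 0.73 over vemurafenib. TIAM1, an activator of Rac, rose by 0.95 alone and had a change of 0.13 over vemurafenib that was not called. HOXA5, HOXC13, FOXC1 and IFFO2 went the other way, with larger rises over vemurafenib, and SLITRK6 fell more there. Of the 57, 9 had the library pattern of the blood-type and histone transcripts.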

How the data were processed

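The deposited values were whole-number counts per gene. Per the study's methods the authors sequenced poly(A)-selected, strand-marked libraries as paired ends, aligned them with STAR 2.5.3a to the human genome and counted fragments over GENCODE genes without using strand, so reads of a gene and an antisense partner cannot be told apart. Fragments that fit more than 1 gene were left out by that counting mode, which lowers overlapping genes. Whether this held for near-identical copies such as HSPA1A and HSPA1B, with their almost equal counts, was not tested. No deposited column was left out.

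Samples were grouped by their titles and drug labels. Counts from all 12 libraries were filtered by group (filterByExpr), scaled by TMM and fitted with 1 term per group in edgeR 4.0.16 (R 4.3.3), giving 16740 tested genes. Contrasts were tested with the quasi-likelihood F-test and adjusted by Benjamini-Hochberg at 0.05. Standard errors are the absolute log2 fold change over the root of F. DESeq2 1.42.0 and limma 3.58.1 (voom with quality weights) served as alternatives, beside other scalings, filters, thresholds and sample sets. The fit was tested on simulated counts. Coordinates come from GENCODE 29, in which 58039 of 58347 gene identifiers were found.

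The comparison, the gene lists and the rule for named genes were chosen with earlier results of these data known. The rule took the 15 largest rises and 10 largest falls with a mean of at least 50 counts in the higher group and groups that do not overlap, tested members of the retinoid and HOX lists, up to 4 called members of each other list by P, the 8 genes with the largest gap of tretinoin replicate 1, and up to 8 by interaction P. Genes named beyond it, the blood marker list and the library pattern were chosen after their values were seen. Some members of the lists are counted but not reported here by name.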

Additional observations from a re-analysis of the deposited data

Results flagged for a closer look

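The effect of tretinoin differed with and without vemurafenib, by the edgeR interaction test, for 81 of the genes called in tretinoin against DMSO. Groups of 3 libraries are too small for a test of outlying samples.

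The interaction on the log2 scale was 1.03 for HOXA5 (0.91 alone and 1.94 over vemurafenib, adjusted P = 0.0024) and 0.80 for HOXC13 (0.40 and 1.19, adjusted P = 0.0033). FOXC1 gave 0.85 (0.28 and 1.13, adjusted P = 4.7e-04) and IFFO2 gave 1.04 (0.77 and 1.81, adjusted P = 4.5e-04). In these 4 genes the rise was larger in cells that also had vemurafenib. For ADAM19 the interaction was -1.68 (1.27 and -0.41, adjusted P = 4.5e-04), for PRRX1 it was -1.23 (0.51 and -0.73, adjusted P = 4.5e-04) and for TIAM1 it was -0.82 (0.95 and 0.13, adjusted P = 0.0024). SLITRK6 gave -0.89 (-0.37 and -1.26, adjusted P = 0.0016), a larger fall with vemurafenib.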

How the results depend on the processing

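Tretinoin against DMSO gave 583 higher and 368 lower genes. The count of higher genes was 234 with the 6 libraries fitted alone, 911 at an adjusted P below 0.1 and 163 with an absolute log2 fold change of at least 1. The count of lower genes was 635 with DESeq2, 584 with limma quality weights, 174 with library totals, 804 without a filter on low counts, 71 with the 6 libraries, 228 with these 6 less tretinoin replicate 1, 804 at an adjusted P below 0.1 and 15 at the fold threshold. Leaving out a replicate gave 273 (without DMSO replicate 2) to 711 (without tretinoin replicate 3) higher and 106 to 656 lower genes, for the same libraries. The combination against vemurafenib gave 254 to 343 higher and 203 to 271 lower genes in this way. The interaction, 64 higher and 71 lower, gave 31 to 121 and 27 to 144, and 126 and 150 with DESeq2. Over all lists, 104 higher and 53 lower members became 55 and 17 with the 6 libraries. In the 4 retinoid and HOX lists, 24 and 3 became 14 and 0, and the lower count was 5 without tretinoin replicate 1 and 6 with DESeq2. Replicate 1 had 965 deviating genes at a gap of 0.5 in place of 94. The cause of these differences was not tested. Chosen after seeing the data, tretinoin replicate 1 alone gave 1570 higher and 2151 lower genes, with 2 of the 583 changing sign.

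Replicate numbers did not pair the libraries: deviations of same-numbered DMSO and tretinoin libraries correlated at -0.03, 0.0076 and -0.08. With the replicate block, 429 genes were higher and 219 lower, and the interaction gave 39 and 36. With the 6 libraries and the replicate block, an alternative added after seeing the data, 143 were higher and 31 lower. At a mean of 50 to 200 counts the median SE of a log2 fold change was 0.17, which limits small changes in low genes.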
